A study of Mus musculus with 18 samples.

Results

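Colon crypts of conventionally raised mice lacking Ern2 were compared with crypts of germ-free mice of the same genotype label, to ask which crypt genes differ with a lifelong microbiota when Ern2 has been deleted. The comparison holds 6 of the 18 RNA-Seq libraries of the study, 3 labelled CONV-Ern2-/- and 3 labelled GF-Ern2-/-, and it was described across all genes. All of these mice were C57BL/6 and carried a whole-body deletion, so that Ern2 was to be missing from every cell and not from the crypt alone. CONV mice lived in a specific pathogen-free facility and GF mice in sterile isolators on autoclaved food, bedding and water, so housing, diet treatment and microbes cannot be told apart. The ages of the mice and the stretch of colon taken from CONV and GF mice were not given in the sources used here. Crypts were released from the colon with EDTA and caught on a strainer, and their mRNA was sequenced. The other 4 groups of 3 libraries (GF-WT, CONV-WT, and the COLONIZED-WT and COLONIZED-Ern2-/- mice, germ free until they were given cecal microbes for 14 days) were used only where a difference from the comparison is given.

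The colonic crypt is lined by absorptive colonocytes that take up sodium, water and short-chain fatty acids, and by secretory cells: goblet cells, which make the mucus gel, enteroendocrine cells, which release hormones, and tuft cells, which sense luminal metabolites and parasites. ERN2 (IRE1beta) is a sensor of unfolded proteins found in the ER of mucus-producing epithelia. Its RNase splices Xbp1 mRNA, and spliced Xbp1 encodes a transcription factor that enlarges the secretory pathway. Microbes reach this epithelium through the mucus, and several of its lectins and antimicrobial proteins are known to depend on them. Because whole crypts were sequenced in bulk, fewer cells of a type and less RNA per cell cannot be told apart in any result that follows.

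Ern2 itself did not separate the groups. Its normalized counts (counts divided by a size factor that puts the 6 libraries on one scale) were 2189, 291 and 2552 in GF-Ern2-/- replicates 1, 2 and 3 and 757, 1223 and 1129 in CONV-Ern2-/- replicates 1, 2 and 3. Reads were therefore assigned to Ern2 in every library labelled Ern2-/-, and GF-Ern2-/- replicate 2 was the lowest of the 6. On the scale of all 18 libraries the other GF-Ern2-/- libraries were at 2880 and 3340, above the GF-WT range of 1910 to 2570, and the CONV-Ern2-/- libraries were at 998 to 1620, below the CONV-WT range of 2090 to 3100. Which exons of Ern2 were removed was not given in the sources used here, and a count per gene can hold reads from exons outside a deletion, so the gene's count does not check the label. The groups overlapped through GF-Ern2-/- replicate 2 alone, and Ern2 did not pass the test (log2 fold change -0.70, SE 0.84, DESeq2 adjusted p = 0.73). Without that library Ern2 was called lower in CONV-Ern2-/- (log2 fold change -1.20, DESeq2 adjusted p = 3.4e-04). Ern1, the ubiquitous relative of Ern2, was at 685, 383 and 469 in the GF libraries and at 482, 236 and 159 in the CONV libraries (log2 fold change -0.80, DESeq2 adjusted p = 0.27). Xbp1, whose mRNA both sensors splice, differed by less (log2 fold change -0.26, DESeq2 adjusted p = 0.58). The counts per gene do not tell spliced from unspliced Xbp1. In what follows, CONV-Ern2-/- and GF-Ern2-/- mean the libraries that carry those labels.

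Several properties of the libraries moved with the groups or stood apart. Library totals, in units of 1e6 counts, were 20.4, 17.4 and 13.8 in GF-Ern2-/- and 15.4, 7.08 and 5.87 in CONV-Ern2-/-. Counts of Rn45s, Mir6236 and Lars2, which collect ribosomal RNA reads, took 0.608 to 0.894% of the GF libraries and 1.66 to 2.50% of the CONV libraries. GF-Ern2-/- replicate 2 had the colonocyte gene Car1 at 282685 normalized counts, against 12128 and 30729 in the other GF libraries and 198585 to 277730 in CONV, and the counts without this library are given for the lists it moved most. Y-linked transcripts were present in 2 of the 3 GF libraries and in 3 of 3 CONV libraries. The 12 epithelial markers summed to 14800 to 16100 CPM (counts scaled to a library total of 1e6) in GF and to 15600 to 16600 in CONV, with none at 0. The 21 immune markers summed to 8.29 to 14.5 CPM in GF and to 13.4 to 22.3 in CONV, with Emr1 and Mpo at 0 in all 6 libraries. Mesenchymal markers (15 genes, 22.8 to 40.3 against 15.2 to 39.6 CPM) and endothelial markers (7 genes, 8.61 to 13.9 against 7.16 to 10.2) overlapped between the groups in sum. Single mesenchymal markers moved, however: 12 of 13 tested had a positive log2 fold change (median 2.31, and 2.03 without GF-Ern2-/- replicate 2), the collagen gene Col3a1 was called higher (2.3, 3.8 and 2.4 in GF, 6.3, 31.8 and 37.7 in CONV) and the pericyte receptor Pdgfrb lower (log2 fold change -1.37). Of 9 glial and neuronal markers, 4 were at 0, among them S100b, Sox10 and Ncam1. The summed level of 20 pancreatic acinar markers was 1650 to 4040 CPM in GF and 274 to 536 in CONV. Among these, Prss1, Cpa1, Pnlip and Amy2a5 were at 0 in all 6 libraries, and the called members were Zg16 and Cela1, which colon epithelium also expresses. The part of depth, ribosomal RNA share, immune cells and mesenchymal cells in the results was not tested for single genes beyond the fits named here.

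Of 13404 genes tested, 581 were called at a DESeq2 adjusted p under 0.01 (4.33%), with 210 higher (1.57%) and 371 lower (2.77%) in CONV-Ern2-/-. Without GF-Ern2-/- replicate 2 the split was 486 higher and 462 lower. With all 6 libraries, 159 of the lower genes and 62 of the higher genes differed more than 4-fold, while the median log2 fold change over all genes tested was -0.01. Of the 581, 193 genes were called again whichever of the 6 libraries was left out. In 573 of the 581 the groups did not overlap, so a lack of overlap sets few called genes apart. Among 128 called genes picked by the naming rule, the fits without 1 library lost most calls without GF-Ern2-/- replicate 1 or CONV-Ern2-/- replicate 3, 49 in each case. Further calls were lost in edgeR (122) and in the fit that included library totals (83). edgeR's quasi-likelihood test called 4 of 12318 genes (0.0325%), all lower in CONV-Ern2-/-: Cyp2d10, Fxyd4, 2010106E10Rik and Lifr. Before adjustment, 2657 genes were under 0.05 in DESeq2 and 2433 in edgeR. With the library total as a covariate DESeq2 called 108 genes, 29 of them higher. The labels call the libraries separate samples and do not say more about how the mice were chosen, so the p-values measure the spread between these samples.

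Among genes called in all 6 of those fits, with a mean of at least 50 normalized counts and no overlap between groups, the fall with the largest fold was in 2010106E10Rik, an uncharacterised gene on the X chromosome (chrX:112495274-112558343, GRCm38). It had 306, 465 and 238 normalized counts in GF-Ern2-/- and 0, 0 and 2.1 in CONV-Ern2-/-, where a single read was counted in all. A group's level was taken as its summed reads divided by its summed size factors. By this measure the GF level was 783 times the CONV level, with a 95% counting interval of 140 to 30900. Fxyd4, a regulator of the sodium pump that aldosterone induces in colon and kidney (chr6:117933558-117937714), was at 772, 561 and 525 in GF and at 0.8, 1.7 and 6.3 in CONV. This was the smallest adjusted p of the comparison together with that of Best2 (Fxyd4 log2 fold change -8.13, SE 0.71, DESeq2 adjusted p = 1.7e-26). Best2, a channel linked to bicarbonate secretion and found in colonic goblet cells (chr8:85007202-85014531), was at 1895, 999.9 and 685 in GF and at 23, 50.3 and 39.8 in CONV (log2 fold change -5.02). Lifr, the receptor for leukaemia inhibitory factor (chr15:7090610-7197489), was at 381, 203 and 298 in GF and at 12.7, 5.0 and 6.3 in CONV (log2 fold change -5.06, DESeq2 adjusted p = 1.0e-21). Other large falls were in Casp14, a caspase of epithelial differentiation (log2 fold change -7.51), Slc6a19 (-6.31), Itih2 (-6.10), the sialidase Neu3 (-5.44), the cytochrome P450 genes Cyp2f2 (-4.71) and Cyp2c68 (-4.02) and the creatine synthesis gene Gatm (-4.16).

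By the same criteria the largest rises were smaller, and Ang4 and Nos2, given further on, rose more but were not called in each fit without 1 library. 1700024P16Rik (Fyb2 in RefSeq, chr4:104835301-105016864) was at 9.6, 50.7 and 8.0 in GF-Ern2-/- and at 259, 134 and 214 in CONV-Ern2-/- (log2 fold change 3.16, SE 0.61, DESeq2 adjusted p = 2.2e-05). Without GF-Ern2-/- replicate 2 its log2 fold change was 4.52. Retnlb, the bactericidal goblet cell protein RELMbeta (chr16:48816856-48818892), was at 93.6, 126 and 90.1 in GF and at 774, 1235 and 572 in CONV. Every CONV library was above every GF library, which the criteria required (log2 fold change 3.06, SE 0.33, DESeq2 adjusted p = 8.1e-17). Tph1, the serotonin synthesis enzyme of enterochromaffin cells (chr7:46644641-46672537), rose from 19.3, 26.5 and 55.0 to 184, 271 and 281 (log2 fold change 2.88). Capg, an actin-capping protein that is among the tuft cell signature genes, rose from 95.3, 197 and 131 to 678, 1359 and 1028 (log2 fold change 2.86). Further rises were in Nacad (2.77), Usp35 (2.68), the phospholipid enzyme Lpcat4 (2.64), the kinase Matk (2.63), the ER-degradation gene Derl3 (2.61), Nyap1 (2.39), brain-type creatine kinase Ckb (2.38) and the secreted phospholipase Pla2g3 (2.20).

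**Figure D1:**
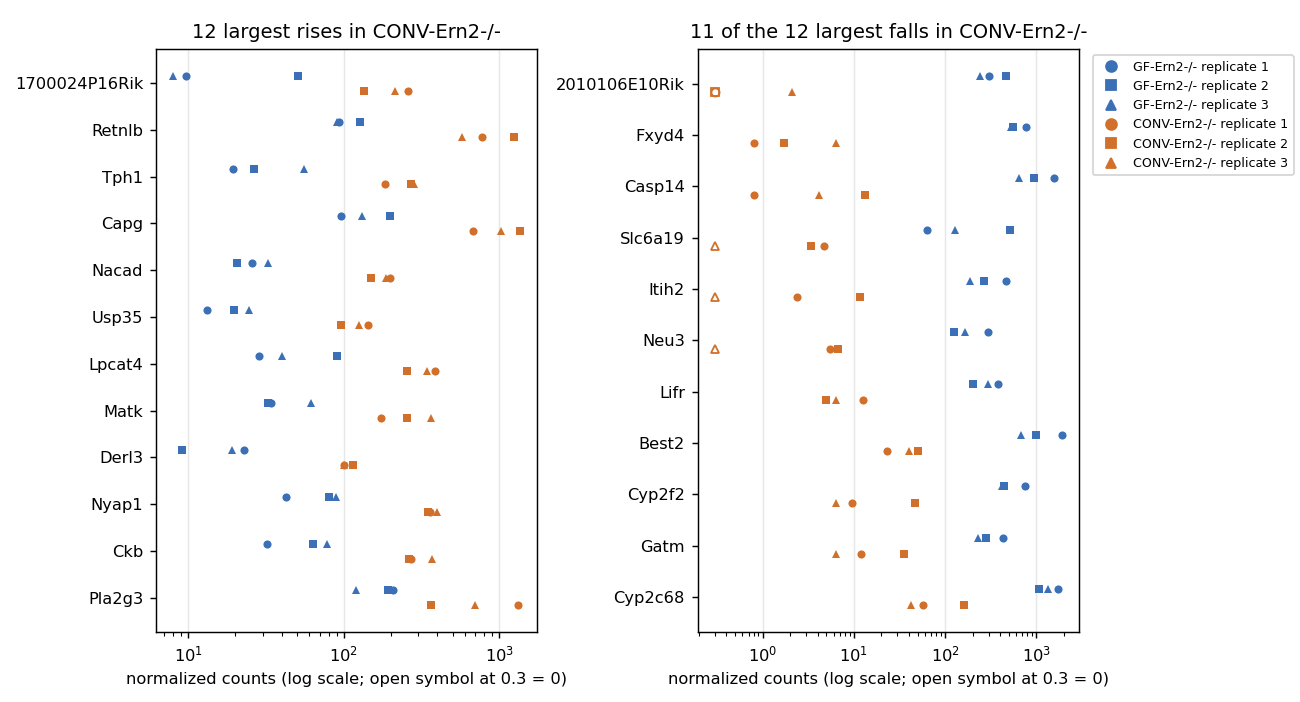
Normalized counts (log axis) of the 12 genes with the largest rises and 11 of the 12 with the largest falls among genes called whichever library was left out and with a mean of at least 50, 1 symbol per library, with circles, squares and triangles for replicates 1, 2 and 3. A lack of overlap between the CONV-Ern2-/- libraries (orange) and GF-Ern2-/- libraries (blue) was a condition for a gene to be shown. Slc6a19 is highest in GF-Ern2-/- replicate 2.

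Genes of the mucus layer fell more often than they rose. Of 15 tested, 6 were lower and 1, Retnlb, was higher in CONV-Ern2-/-, and the list's median log2 fold change was -1. Without GF-Ern2-/- replicate 2, 4 were lower and 3 higher. Klk1, a kallikrein protease of goblet cells, was at 22958, 14160 and 12740 normalized counts in GF-Ern2-/- and at 2729, 2212 and 2543 in CONV-Ern2-/-. The CONV libraries lay close together and far under the lowest GF library (6.66-fold lower, log2 fold change -2.74, SE 0.28, DESeq2 adjusted p = 2.2e-19). Zg16, the mucus lectin that binds Gram-positive bacteria, was at 41384, 45273 and 14807 in GF and at 2692, 5118 and 5724 in CONV (7.50-fold lower, DESeq2 adjusted p = 2.0e-09). Rep15, a Rab15-binding protein of goblet cells, fell by 1.88 on the log2 scale, and Klk1, Zg16 and Rep15 were called in all 6 fits without 1 library. Fcgbp, the mucus cross-linker, was at 51062, 38880 and 16044 in GF and at 9357, 13321 and 9727 in CONV (log2 fold change -1.71, DESeq2 adjusted p = 4.9e-04), and its call was lost without GF-Ern2-/- replicate 1 (adjusted p = 0.031) and without CONV-Ern2-/- replicate 3 (0.025). Tff3, the trefoil peptide of mucus, had a log2 fold change of -1.76, and Clca3, a mucus metalloprotease counted under the older symbol of Clca1, of -2.14. Each of these calls held in 2 of the 6 fits, and the adjusted p of Clca3 was 0.48 without GF-Ern2-/- replicate 1.

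The gel-forming mucin did not pass the test. Muc2 was at 29754, 7359 and 19728 in GF-Ern2-/- and at 24933, 15873 and 13987 in CONV-Ern2-/-, so that the groups overlapped (log2 fold change -0.05, SE 0.44, DESeq2 adjusted p = 0.97). GF-Ern2-/- replicate 2 was its lowest library, and without it the log2 fold change was -0.44 (DESeq2 adjusted p = 0.46). Agr2, the ER disulfide isomerase that folds MUC2, also overlapped (log2 fold change 0.06, DESeq2 adjusted p = 0.95). Spink4, a goblet cell peptide, had each CONV library above each GF library and did not pass the test (4127, 5053 and 6354 against 2853, 3928 and 1755, DESeq2 adjusted p = 0.084).

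**Figure D2:**
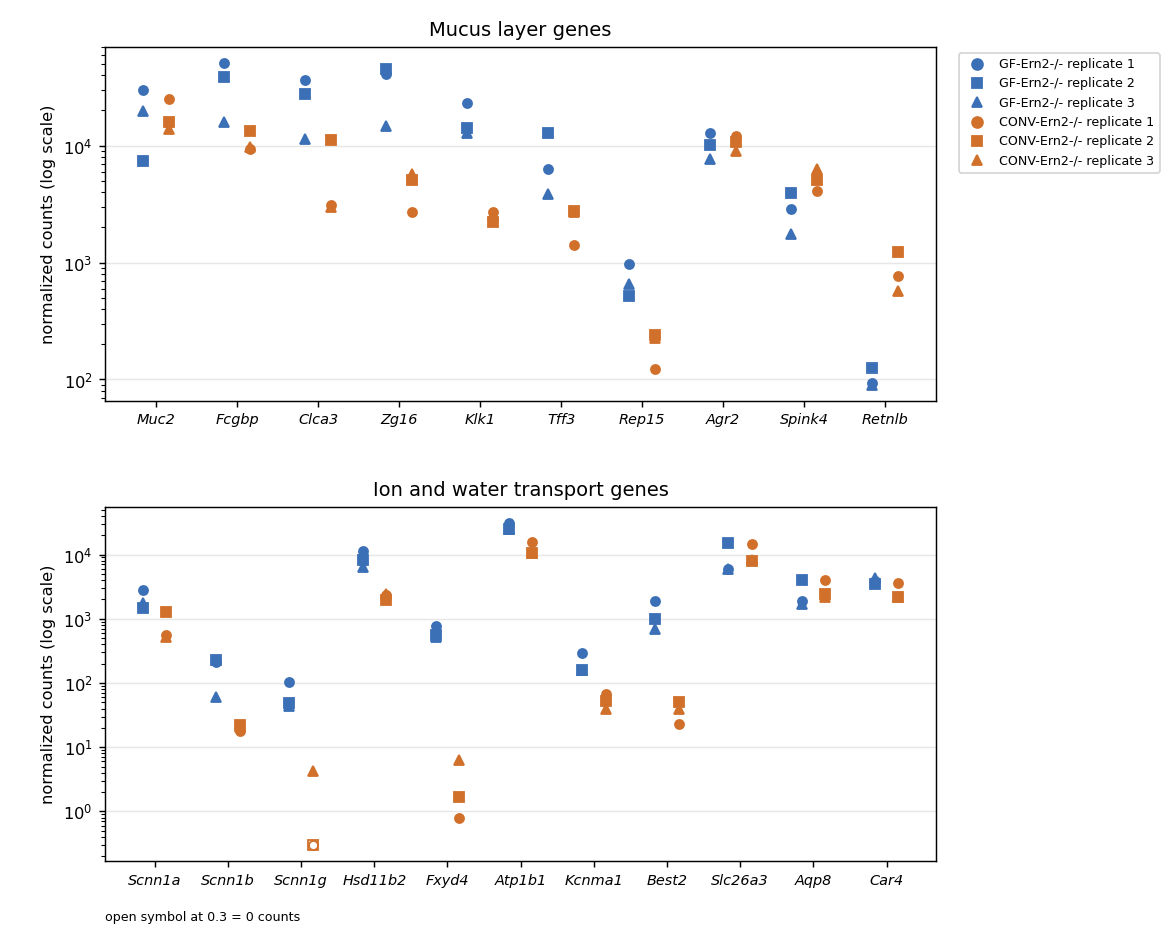
Normalized counts (log axis) of 10 mucus layer genes and 11 ion and water transport genes in the 3 GF-Ern2-/- (blue) and 3 CONV-Ern2-/- (orange) libraries. Zg16, Klk1, Fxyd4 and Best2 separate the groups, with CONV-Ern2-/- lower, Retnlb separates them with CONV-Ern2-/- higher, and Muc2, Agr2, Slc26a3, Aqp8 and Car4 overlap.

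Of 33 mucin glycan enzymes 4 were lower and none higher, with a median of -0.48. There were 3 higher and 4 lower without GF-Ern2-/- replicate 2, and 2 lower without GF-Ern2-/- replicate 1. Fut4, a fucosyltransferase, was at 3304, 1230 and 1503 in GF-Ern2-/- and at 405, 409 and 222 in CONV-Ern2-/- (log2 fold change -2.54, DESeq2 adjusted p = 6.8e-08) and was called in all 6 fits without 1 library. The sialyltransferase St3gal6 (-2.70), the core fucosyltransferase Fut8 (-1.26) and the branching enzyme Gcnt1 (-1.19) were called in 4, 4 and 3 of these fits. Of 5 transmembrane mucins tested Muc1 was called (115, 63.5 and 126 in GF, 8.7, 40.2 and 16.8 in CONV, log2 fold change -2.26), and this call was kept in 2 of the 6 fits. Among 24 secretory lineage factors 2 were lower and 15 had a positive log2 fold change, with a median of 0.08. Foxa2, a factor of secretory differentiation, was at 669, 444 and 478 in GF and at 189, 248 and 197 in CONV (log2 fold change -1.33, DESeq2 adjusted p = 7.9e-05). Gfi1, which stabilises the goblet and Paneth cell fate, was at 120, 79.4 and 97.3 in GF and at 43.5, 41.9 and 37.7 in CONV. The groups did not overlap, yet the call of Gfi1 (log2 fold change -1.26, DESeq2 adjusted p = 0.0091) was kept in 1 of 6 fits. Atoh1, the master regulator of secretory cells, missed the threshold (log2 fold change -0.89, DESeq2 adjusted p = 0.013), and Spdef, a factor of goblet cell maturation, overlapped between groups (0.45, 0.51). In the goblet signature that the study lists by name, 36 of 400 genes were lower and 4 higher (10% called), and 13 of the lower calls held in all 6 fits. Its lower members included the Golgi calcium and manganese pump Atp2c2 (1385, 783 and 781 in GF, 153, 206 and 134 in CONV, log2 fold change -2.58) and the magnesium transporter Slc41a2 (-2.10).

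Of 53 colonic ion transport genes, 10 were lower and none higher (median -0.46). Without GF-Ern2-/- replicate 2 there were 10 lower and 4 higher. Several of the lower genes take part in sodium uptake, which aldosterone drives in the distal colon through the epithelial sodium channel and the sodium pump. The channel's gamma subunit Scnn1g was at 103.8, 49.2 and 44.6 in GF-Ern2-/- and at 0, 0 and 4.2 in CONV-Ern2-/-, where 2 reads were counted in all. By summed reads over summed size factors it was 81.9 times higher in GF (95% counting interval 22.5 to 679). The beta subunit Scnn1b was at 216, 228 and 59.8 in GF and at 18.2, 21.8 and 20.9 in CONV (log2 fold change -3.06, DESeq2 adjusted p = 1.3e-06). The alpha subunit Scnn1a, looked up after these values were seen, was just short of the threshold (log2 fold change -1.37, DESeq2 adjusted p = 0.012). Hsd11b2, which protects the mineralocorticoid receptor from cortisol-type steroids, was at 11291, 8105 and 6376 in GF and at 2338, 1923 and 2438 in CONV. All 3 CONV libraries were under the lowest GF library (3.85-fold lower, log2 fold change -1.94, DESeq2 adjusted p = 1.7e-10). Of the pump itself, the beta subunit gene Atp1b1, named after its values were seen, fell (-1.13) along with Fxyd4. The secretory potassium channel Kcnma1 was at 296, 159 and 161 in GF and at 67.3, 51.9 and 39.8 in CONV (log2 fold change -1.93).

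Other transporters of the surface colonocyte were divided between falls and groups that overlapped. The butyrate and lactate transporter Slc5a8 fell by 1.19 on the log2 scale (DESeq2 adjusted p = 0.0066, kept in 1 of 6 fits) and the peptide transporter Slc15a1 had a log2 fold change of -3.38 (DESeq2 adjusted p = 0.0073, kept in 2 of 6). Both were named after their values were seen. The chloride/bicarbonate exchanger Slc26a3 was at 5920, 15309 and 5994 in GF-Ern2-/- and at 14411, 7787 and 8191 in CONV-Ern2-/- (DESeq2 adjusted p = 0.90). The water channel Aqp8 (log2 fold change 0.18) and the membrane carbonic anhydrase Car4 (-0.54) overlapped too. Atp12a, the colonic proton/potassium pump, was at 7147, 1943 and 3003 in GF and at 6.3, 352 and 35.6 in CONV. The groups were far apart, and the spread within CONV left the test short of the threshold (log2 fold change -4.94, SE 1.42, DESeq2 adjusted p = 0.011). Of 18 tight junction claudins 2 were lower: Cldn8, a claudin of sodium-absorbing epithelia, at 1736, 1592 and 1259 in GF and 261, 658 and 205 in CONV (log2 fold change -2.03), and Cldn12 (-0.98).

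Digestive enzymes and transporters of the brush border, which are more typical of small intestine, were lower in CONV-Ern2-/- in 11 of 32 tested members and higher in none, with a median of -1.15. Slc7a9, a cystine transporter, was at 192, 396 and 225 in GF-Ern2-/- and at 40.4, 31.8 and 27.2 in CONV-Ern2-/- (log2 fold change -3.00, DESeq2 adjusted p = 1.6e-11). Mme, the peptidase neprilysin, was at 43.1, 139 and 79.7 in GF and at 0.8, 5.0 and 0 in CONV (log2 fold change -5.61). Sis, which digests sucrose, was at 417, 1211 and 912 in GF and at 161, 40.2 and 27.2 in CONV (log2 fold change -3.45). Slc5a1, the glucose transporter SGLT1, fell by 1.28, and its groups were narrow (4868, 4507 and 3479 against 2137, 1573 and 1583). Slc6a19, a neutral amino acid transporter, was at 63.6, 508 and 129 in GF and at 4.7, 3.4 and 0 in CONV, with GF-Ern2-/- replicate 2 the highest library. Without that library 2 members were higher and 6 lower and the median was -0.08, while the log2 fold change of Slc6a19 was -4.90.

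The enterocyte signature depended on that library too, above all in its higher calls. With all 6 libraries 5 of 454 genes were higher and 46 lower (median -0.11), and without GF-Ern2-/- replicate 2 there were 53 higher and 36 lower (median 0.16). Members that fell with all 6 libraries and in each fit without 1 library included Spink3, a secreted trypsin inhibitor (2343, 2432 and 1249 in GF, 127, 218 and 205 in CONV, log2 fold change -3.46, DESeq2 adjusted p = 5.8e-21). They also included Slc6a4, the serotonin transporter, at 821, 393 and 402 in GF and at 61.0, 36.9 and 37.7 in CONV (log2 fold change -3.55, DESeq2 adjusted p = 7.0e-16). Thus the gene for serotonin uptake fell while Tph1, the gene for its synthesis, rose. The abundant colonocyte gene Car1 got no adjusted p.

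**Figure D3:**
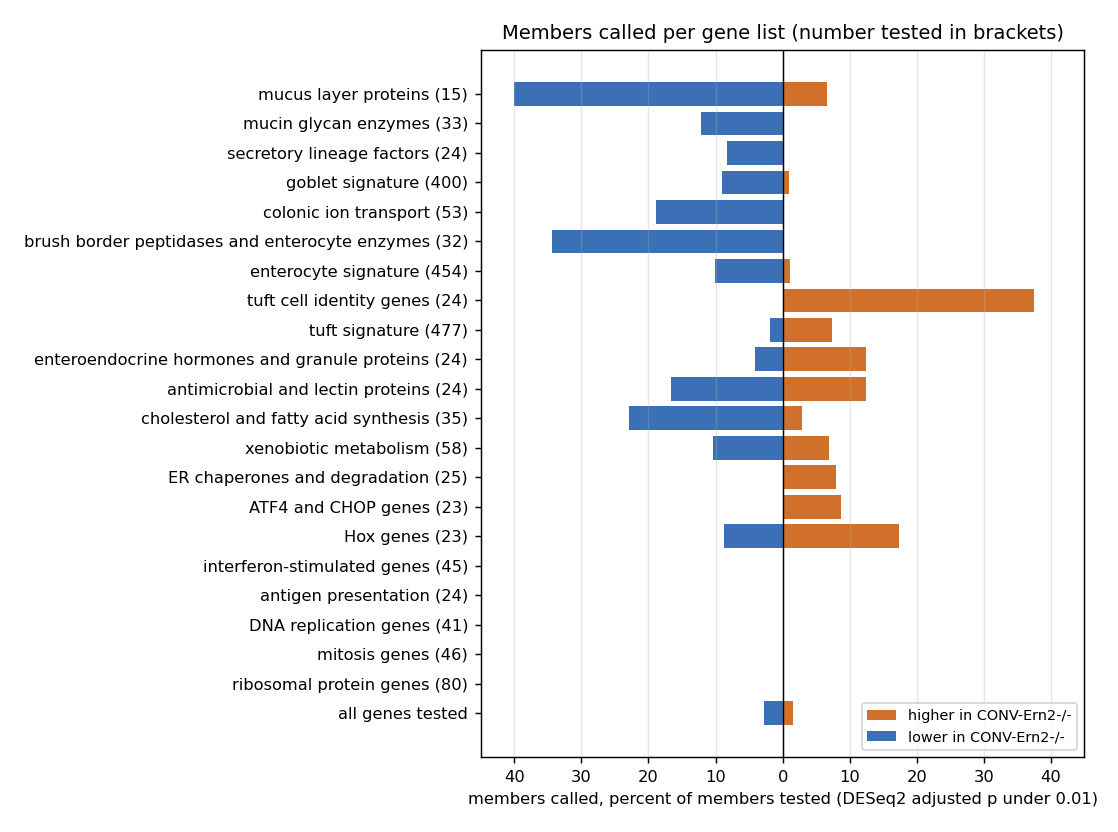
Percent of the tested members of 21 gene lists called higher (orange, to the right) or lower (blue, to the left) in CONV-Ern2-/- at a DESeq2 adjusted p under 0.01, with all genes tested in the last bar. Mucus layer and brush border lists lean to the left and tuft cell identity genes to the right, and the 5 lists above the last bar have no called member.

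Of 24 tuft cell identity genes tested, 9 were higher and none lower, 23 had a positive log2 fold change, and the median was 1.33. With the library total as a covariate no identity gene was called. Dclk1, the kinase used as a tuft cell marker, was at 274, 283 and 528 in GF-Ern2-/- and at 1066, 816 and 1196 in CONV-Ern2-/- (2.84-fold higher, log2 fold change 1.51, DESeq2 adjusted p = 1.9e-04). Alox5, which starts leukotriene synthesis, was at 58.4, 77.1 and 106 in GF and at 199, 243 and 339 in CONV (log2 fold change 1.69, DESeq2 adjusted p = 6.3e-05). The groups did not overlap in either gene. Alox5 was the 1 member called in all 6 fits without 1 library. Ptgs1, the cyclooxygenase of tuft cells (1.77), the IL-25 receptor subunit Il17rb (1.90) and Siglec5 (1.80) were also called. Trpm5, the taste cation channel, and Pou2f3, the factor that specifies tuft cells, both named after their values were seen, were higher in each CONV library and missed the threshold (DESeq2 adjusted p = 0.011 and 0.027). CONV-Ern2-/- replicate 3 was the highest library for Dclk1, Alox5, Ptgs1 and Il17rb, and without it 1 identity gene was called. In the wider tuft signature 35 of 477 genes were higher and 9 lower (9.22% called, median 0.15), against 14 higher without GF-Ern2-/- replicate 1, 14 without CONV-Ern2-/- replicate 3 and 4 higher and 1 lower in the fit that included library totals. The higher genes included Ffar3, a receptor for short-chain fatty acids, at 9.1, 13.6 and 17.5 in GF and at 73.6, 58.6 and 90.1 in CONV (log2 fold change 2.48, DESeq2 adjusted p = 3.1e-06). The signature also holds genes that leukocytes express, such as Alox5, and the summed immune markers overlapped between the groups (8.29 to 14.5 CPM in GF, 13.4 to 22.3 in CONV), with none of the 8 tested called. Their part in this result was not tested.

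Of 24 hormone and granule genes, 3 were higher and 1 lower (median 0.38). In the wider enteroendocrine signature 4 of 130 genes were higher and 5 lower (median 0.33), and without GF-Ern2-/- replicate 2 there were 9 and 8. Chgb, the granule protein chromogranin B, was at 228, 256 and 230 in GF-Ern2-/- and at 980.0, 707 and 1016 in CONV-Ern2-/-, with narrow groups that did not overlap (log2 fold change 1.92, SE 0.24, DESeq2 adjusted p = 6.3e-13). Chga, chromogranin A, rose from 141, 206 and 108 to 492, 288 and 490.1 (log2 fold change 1.48), and with Tph1 these were the higher members. Insl5, a hormone of distal colonic L cells, was at 226, 330 and 174 in GF and at 15.8, 48.6 and 6.3 in CONV (log2 fold change -3.37, DESeq2 adjusted p = 5.9e-08). Gcg and Pyy, the other L cell hormone genes, chosen after their values were seen, did not pass the test (log2 fold change -0.54 and -0.75, DESeq2 adjusted p = 0.31 and 0.15). The receptor genes Sstr1 (-3.04) and, in the stem signature, Htr4 (-1.75) were lower.

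Defence genes moved in both directions. Of 24 antimicrobial and lectin genes, 3 were higher and 4 lower (median 0.27), with 9 higher and 4 lower without GF-Ern2-/- replicate 2 and 1 higher and 2 lower without GF-Ern2-/- replicate 1. Ang4, a microbicidal RNase, was at 61.3, 57.5 and 140 in GF-Ern2-/- and at 710.0, 2883 and 549 in CONV-Ern2-/- (log2 fold change 4.00, DESeq2 adjusted p = 9.2e-10). S100a11, a calcium-binding protein, rose by 1.30. Saa1, the acute phase apolipoprotein, was at 5985, 4385 and 8301 in GF and at 2212, 2230.0 and 1370 in CONV (log2 fold change -1.68, DESeq2 adjusted p = 7.4e-06). The protease inhibitor genes Wfdc2 (-1.74) and Slpi were lower, with Slpi at 30.1, 17.4 and 10.4 in GF and 1 read in all in CONV (48.0 times higher in GF by level, 95% counting interval 8.39 to 1920). Ang4 and Saa1 each have near-identical relatives among which reads could be split. Reg3b was at 113, 1801 and 219 in GF and at 5261, 1322 and 2702 in CONV and overlapped (DESeq2 adjusted p = 0.32). Without GF-Ern2-/- replicate 2 it was called higher (log2 fold change 4.23, DESeq2 adjusted p = 3.8e-13), as was Reg3g (4.40, 0.0055). Duoxa2, needed for epithelial hydrogen peroxide release, rose from 58.4, 35.5 and 28.7 to 102, 206 and 220 (log2 fold change 2.09), and Nos2, the inducible nitric oxide synthase, from 2.3, 5.3 and 1.6 to 22.2, 36.9 and 25.1 (3.20). Of 30 microbe sensors Nod2, the muramyl dipeptide receptor, was called (log2 fold change 1.68), which is 3.33% of the list against 4.33% of all genes tested. The call was lost without replicate 1 of GF-Ern2-/-, and without replicate 1 or 3 of CONV-Ern2-/-. It was also lost with the replicate block and with thinned counts. Of 20 chemokine, cytokine and IgA transport genes Ccl6, a chemokine, was called lower (5% of the list), at 2885, 2257 and 1924 in GF and 374, 766 and 488 in CONV (log2 fold change -2.12). Pigr, which carries IgA across the epithelium, overlapped (-0.14).

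Genes of ER protein folding were looked at because Ern2 belongs to this response. The promoters of 3 such genes and of Chac1, a glutathione-degrading enzyme induced in the stress response through ATF4, are shown, since 3 of these 4 genes were called. Each is the 200 bases before the gene's start on the + strand, from RefSeq (GRCm38.p6). Capitals mark the ER stress element (CCAAT, 9 bases of any kind, then CCACG) in Derl3, Creld2 and Hspa5 and the ATF4 element (TGATGNAAC or TGATGNAAT) in Chac1. In Derl3, Creld2 and Chac1 the element lies on the opposite strand, so the capitals show its reverse complement. The windows are chr10:75893198-75893397 for Derl3, chr15:88819446-88819645 for Creld2, chr2:34771890-34772089 for Hspa5 and chr2:119351042-119351241 for Chac1.
Derl3: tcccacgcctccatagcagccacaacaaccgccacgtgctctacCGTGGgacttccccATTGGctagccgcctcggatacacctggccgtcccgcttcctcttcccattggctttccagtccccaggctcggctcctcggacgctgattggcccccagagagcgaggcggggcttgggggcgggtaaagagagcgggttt
Creld2: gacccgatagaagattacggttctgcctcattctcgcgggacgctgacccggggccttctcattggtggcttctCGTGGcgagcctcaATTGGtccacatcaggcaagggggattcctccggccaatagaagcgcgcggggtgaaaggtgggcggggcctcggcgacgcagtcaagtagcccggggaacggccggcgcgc
Hspa5: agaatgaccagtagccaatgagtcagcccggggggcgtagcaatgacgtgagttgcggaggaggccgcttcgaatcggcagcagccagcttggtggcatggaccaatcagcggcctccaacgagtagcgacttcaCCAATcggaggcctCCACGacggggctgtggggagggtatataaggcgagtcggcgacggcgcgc
Chac1: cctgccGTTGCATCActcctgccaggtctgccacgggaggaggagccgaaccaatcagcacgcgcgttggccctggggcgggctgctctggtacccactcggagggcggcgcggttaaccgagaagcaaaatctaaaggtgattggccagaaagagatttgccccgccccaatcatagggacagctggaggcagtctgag

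Both strands of all 32851 promoter windows, from 250 bases before to 50 after a gene's start, were searched. The ER stress element was in 39 of them (0.119%) and in 9 of 22 windows of the ER chaperone list (40.9%), those of Calr, Canx, Creld2, Derl3, Dnajc3, Hsp90b1, Hspa5, Pdia6 and Syvn1. The ATF4 element was in 580 windows (1.77%) and in 5 of 25 windows of the ATF4 and CHOP list (20%). Of 25 ER chaperone and degradation genes, 2 were higher in CONV-Ern2-/- and none lower (median 0.07). Derl3, which helps to pull misfolded proteins out of the ER, was at 22.7, 9.1 and 19.1 in GF-Ern2-/- and at 99.7, 114 and 101 in CONV-Ern2-/- (6.11-fold higher, log2 fold change 2.61, SE 0.42, DESeq2 adjusted p = 7.3e-08). Creld2, an ER protein induced by stress, was at 419, 471 and 422 in GF and at 1173, 870 and 834 in CONV (log2 fold change 1.14, DESeq2 adjusted p = 7.9e-05). Neither gene's groups overlapped, as in 573 of the 581 called genes, and both were called in all 6 fits without 1 library. For Derl3 both traits were also conditions of its place among the largest rises. Hspa5, the chaperone BiP, overlapped between groups (5646, 8178 and 4850 against 11365, 7918 and 8516, log2 fold change 0.57, DESeq2 adjusted p = 0.22), and its promoter holds the same element. Of 23 ATF4 and CHOP genes, 2 were higher and none lower, and 19 had a positive log2 fold change (median 0.5). Chac1 was at 5.1, 15.1 and 4.8 in GF and at 36.4, 72.0 and 29.3 in CONV (log2 fold change 2.47, DESeq2 adjusted p = 0.0034, kept in 1 of 6 fits), and Sesn2, a stress-induced regulator of mTORC1, rose by 1.01 (kept in 2 of 6). Ddit3, which encodes CHOP, and Trib3, its target, overlapped (log2 fold change 0.95 and 1.17, DESeq2 adjusted p = 0.20 and 0.38). None of 40 XBP1 and secretory targets was called in either direction (median -0.06). Derl3 and Creld2 are not in that list.

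Of 35 cholesterol and fatty acid synthesis genes 8 fell and 1 rose, with a median of -0.79. The falls numbered 3 without GF-Ern2-/- replicate 1, 4 without GF-Ern2-/- replicate 2 and 4 without CONV-Ern2-/- replicate 3. Fads2, which makes polyunsaturated fatty acids, was at 6049, 3237 and 3756 in GF-Ern2-/- and at 1144, 1051 and 607 in CONV-Ern2-/- (log2 fold change -2.22, DESeq2 adjusted p = 7.6e-09). Acly and Acss2, the cytosolic sources of acetyl-CoA, had log2 fold changes of -1.39 and -1.28, and with Fads2 they were called in all 6 fits without 1 library. Scd2 (-1.51), the sterol enzyme Msmo1 (-1.40) and Insig1 (-1.53) were among the other falls. The rise was in Me1, which supplies NADPH (log2 fold change 1.78), and this call was kept in 3 of 6 fits without 1 library. With the library total as a covariate no member of the list was called.

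Of 58 xenobiotic metabolism genes, 4 were higher and 6 lower (median -0.08). Cyp2d10, a cytochrome P450, was at 393, 323 and 357 in GF-Ern2-/- and at 56.2, 67.0 and 71.2 in CONV-Ern2-/-. The libraries of each group agreed closely (log2 fold change -2.48, SE 0.27, DESeq2 adjusted p = 8.1e-17). Nr1i3, the nuclear receptor CAR, fell by 1.85 on the log2 scale, and Cyp4f14, Cyp4v3 and Cyp3a13 were the other falls beside Cyp2c68. The carboxylesterase Ces2a was at 964, 2029 and 1041 in GF and at 6935, 2314 and 4497 in CONV (log2 fold change 1.77), and the glutathione transferases Gstm3 (1.10) and Gsta3 (1.31) and Cyp3a44 were higher. Without GF-Ern2-/- replicate 2 the list had 11 higher and 5 lower members. No higher member was called without GF-Ern2-/- replicate 1 or without replicate 1 or 3 of CONV-Ern2-/-, and 1 was called without GF-Ern2-/- replicate 3. The lower members numbered 2 to 9 in the fits without 1 library. These families have many close copies, between which reads could be split.

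Some genes that mark position along the colon differed between the groups. Hox genes keep a record of position along the gut, and high-numbered members mark the distal end. Of 23 tested, 4 were higher and 2 lower in CONV-Ern2-/- (median 0.18). Hoxd13 was at 243, 204 and 33.5 in GF-Ern2-/- and at 0 in all 3 CONV-Ern2-/- libraries, at least 133-fold lower against a floor of 3 counts over the group (DESeq2 adjusted p = 5.4e-06). Hoxd11 was at 20.4, 20.4 and 2.4 in GF and at 0 in the CONV libraries, at least 11.9-fold lower. Hoxb5 rose from 18.2, 36.3 and 116 to 243, 255 and 499 (log2 fold change 2.55), Hoxb6 by 2.33, Hoxd3 by 2.76 and Hoxd8 by 2.99. Hoxb13, the most abundant distal member, was named after its values were seen. It was at 5917, 2839 and 3440 in GF and at 89.4, 1163 and 60.7 in CONV (log2 fold change -3.22, DESeq2 adjusted p = 0.077), with CONV-Ern2-/- replicate 2 far above the other CONV libraries. None of the 6 calls held in every fit without 1 library. Higher calls numbered 7 without GF-Ern2-/- replicate 3 and 0 without CONV-Ern2-/- replicate 3. Lower calls numbered 4 without CONV-Ern2-/- replicate 2 and 0 without GF-Ern2-/- replicate 1 or 2. In the HoxA cluster no gene was called: Hoxa5 (log2 fold change -0.13), Hoxa7 (0.09) and Hoxa11 (0) were near 0, Hoxa9 and Hoxa10 were at -0.87 and -1.13 (DESeq2 adjusted p = 0.39 and 0.15), and the distal Hoxa13 was at -1.75 (0.053). These HoxA genes were chosen after their values were seen. In the WT libraries Hoxd13 was lower in CONV too (log2 fold change -7.79). Insl5, Scnn1b and Scnn1g, described above with the distal colon, were also among the falls. They were picked from the called genes, and no list of distal markers was tested. The distal Hoxb13 and Hoxa13 did not pass the test. The part of the sampled stretch of colon in those results was not tested.

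**Figure D4:**
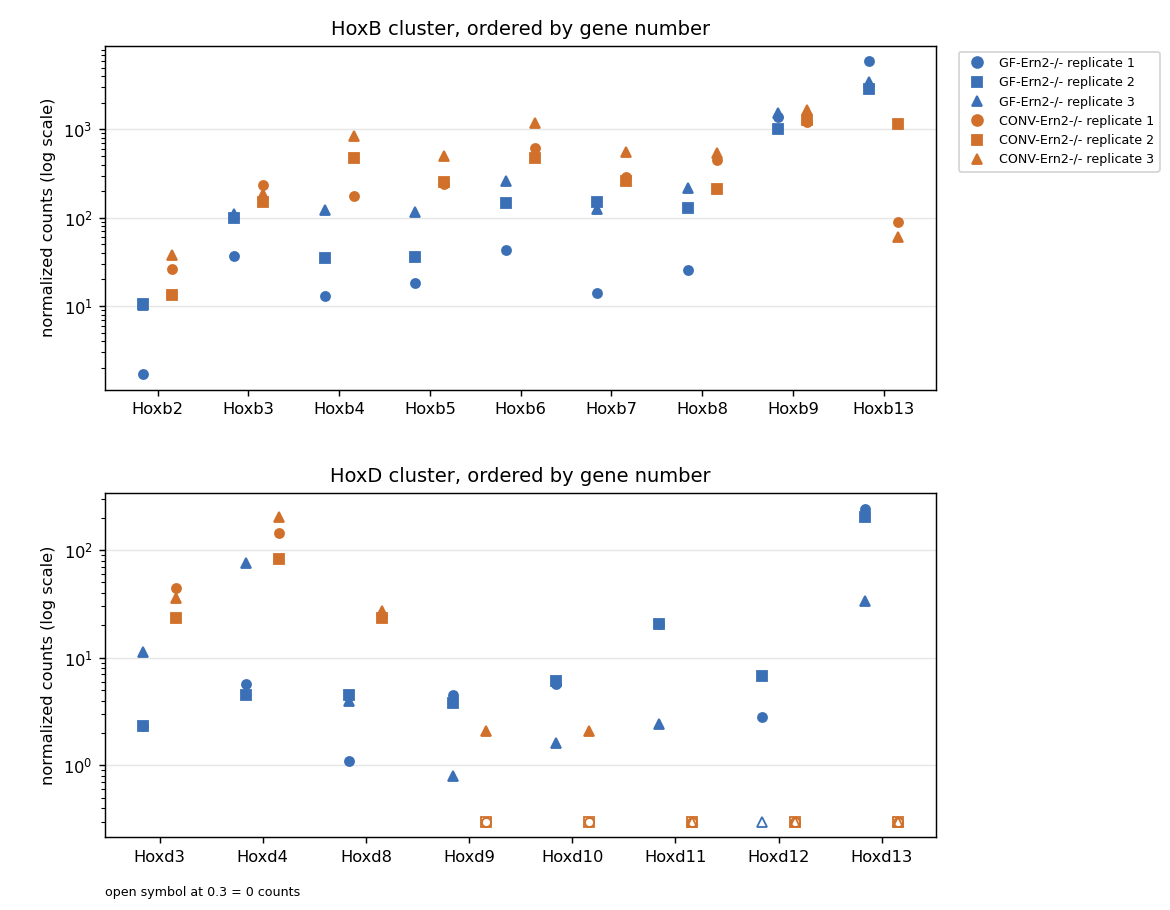
Normalized counts (log axis) of HoxB and HoxD genes in gene order in the 3 GF-Ern2-/- (blue) and 3 CONV-Ern2-/- (orange) libraries, with open symbols for 0 counts. Hoxb5, Hoxb6, Hoxd3 and Hoxd8 are higher in CONV-Ern2-/-, Hoxd13 and Hoxd11 are at 0 there, and the square of CONV-Ern2-/- replicate 2 is the highest orange symbol for Hoxb13.

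Several functions gave no call in either direction in DESeq2. These were the 41 DNA replication genes (median 0.18) and 46 mitosis genes (0.35), the 42 genes of fatty acid oxidation and ketogenesis (0.01), 24 antigen presentation genes (-0.53), 45 interferon-stimulated genes (-0.65), 18 circadian clock genes (-0.35), 23 immediate early genes (0.17) and 80 ribosomal protein genes (0.02). Positive log2 fold changes numbered 28 and 40 in the DNA replication and mitosis lists, 21 in fatty acid oxidation and 6 in antigen presentation. They numbered 10 in the interferon list, 5 in the clock list, 16 in the immediate early list and 42 in the ribosomal list. Over all genes tested 6594 of 13404 were positive. With 4.33% of all genes called, the lack of a call in lists this short does not show that they were unchanged. Without GF-Ern2-/- replicate 2 the fatty acid oxidation list had 6 higher and 2 lower members and a median of 0.35, and 5 interferon-stimulated genes were lower, whereas 4 were higher and none lower without GF-Ern2-/- replicate 1. The fit without GF-Ern2-/- replicate 2 also gave 14 higher and 46 lower genes in the goblet signature, 8 and 13 in the stem signature, and 50 and 15 in the tuft signature. The lower goblet signature genes numbered 14 without GF-Ern2-/- replicate 1, 15 without CONV-Ern2-/- replicate 3 and 9 in the fit that included library totals. The lower stem signature genes numbered 2 without GF-Ern2-/- replicate 1, 3 without GF-Ern2-/- replicate 3 and 2 without CONV-Ern2-/- replicate 3. Mki67, a proliferation marker, was at 3259, 1174 and 2633 in GF-Ern2-/- and at 4898, 2413 and 2568 in CONV-Ern2-/- (DESeq2 adjusted p = 0.57). Lgr5, the crypt stem cell receptor, overlapped as well (127, 106 and 223 against 209, 107 and 161), as did Cpt1a, the entry enzyme of fatty acid oxidation (log2 fold change -0.33). Of 29 stem cell and Wnt target genes Cd44 was called higher, which is 3.45% of the list against 4.33% of all genes tested. Cd44 was at 306, 369 and 572 in GF and at 2258, 994 and 1192 in CONV (log2 fold change 1.84, DESeq2 adjusted p = 5.8e-05). The stem signature had 2 of 119 genes higher and 10 lower (10.1% called). Of 86 oxidative phosphorylation genes Ndufa4 was lower (-0.75), which is 1.16% of the list. Of 16 phospholipase A2 and lipase-like genes, Pla2g3 was higher and Pla2g2f (-2.72) and Pla2g10 (-1.19) were lower. No member was called lower without GF-Ern2-/- replicate 1, and 4 were without CONV-Ern2-/- replicate 2. Pla2g4c was at 19.3, 15.1 and 66.2 in GF and at 181, 858 and 115 in CONV and missed the threshold (log2 fold change 3.52, DESeq2 adjusted p = 0.014).

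Whether the difference between CONV and GF depended on the genotype label was tested by an interaction over 12 libraries, in which 23 of 13027 genes were called (0.177%) and 3 of these were Y-linked. Sex was not balanced over these libraries. Y-linked transcripts were near 0 in every GF-WT library. They were present in replicate 1 alone of CONV-WT and in every CONV-Ern2-/- library. The part of sex in the interaction was not tested. edgeR called none, with 957 genes at an unadjusted p under 0.05 against 1181 in DESeq2. Gfi1 was the gene with the smallest adjusted p. On the scale of all 18 libraries it was at 185, 166 and 153 in GF-WT and 357, 596 and 332 in CONV-WT, and at 158, 105 and 127 in GF-Ern2-/- and 57.4, 55.5 and 49.7 in CONV-Ern2-/-. It thus rose in the WT libraries (log2 fold change 1.34) and fell in the Ern2-/- libraries (-1.26), and the difference was called (-2.61, SE 0.41, DESeq2 adjusted p = 2.9e-06). Itln1, the lectin intelectin-1, went from 20.0, 28.7 and 16.7 to 1629, 807 and 338 in WT and was between 11.5 and 45.1 in all 6 Ern2-/- libraries (DESeq2 adjusted p = 4.0e-05). Anxa13, a membrane-binding annexin, differed by -2.24 (DESeq2 adjusted p = 7.2e-06). Gfi1, Anxa13 and Itln1 were the 3 genes called whichever of the 12 libraries was left out, and the latter pair were chosen after their values were seen.

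Retnlb rose under both labels, to different levels. It went from 172, 329 and 376 in GF-WT to 34427, 25349 and 7504 in CONV-WT, and from 123, 168 and 118 to 1021, 1638 and 753 in Ern2-/- (log2 fold change 6.25 against 3.06, DESeq2 adjusted p = 0.0043 for the difference, kept in 3 of 12 fits). Saa1 fell under both labels, with a log2 fold change of -4.74 in WT and of -1.68 in Ern2-/- (DESeq2 adjusted p = 0.0072). Rasd1, a Ras-like protein, fell by 1.10 in Ern2-/- and was at 0.43 in WT (DESeq2 adjusted p = 0.0072). The lipid digestion genes Clps and Pnliprp2, chosen after their values were seen, had log2 fold changes of 3.37 and 4.82 in WT and of 0.18 and 0.34 in Ern2-/-. Of the 20 genes that were not Y-linked, 7 had a more positive and the others a more negative difference in Ern2-/-. Fxyd4, among the largest falls, had a log2 fold change of -8.05 in WT and -8.13 in Ern2-/-, with an interaction of 0.01 (DESeq2 adjusted p = 1.0). The ordinary fits put the median of the mucus layer list at 0.23 in WT and at -1 in Ern2-/-, and that of the tuft identity list at 1.48 and 1.33. These list medians were not tested against each other.

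**Figure D5:**
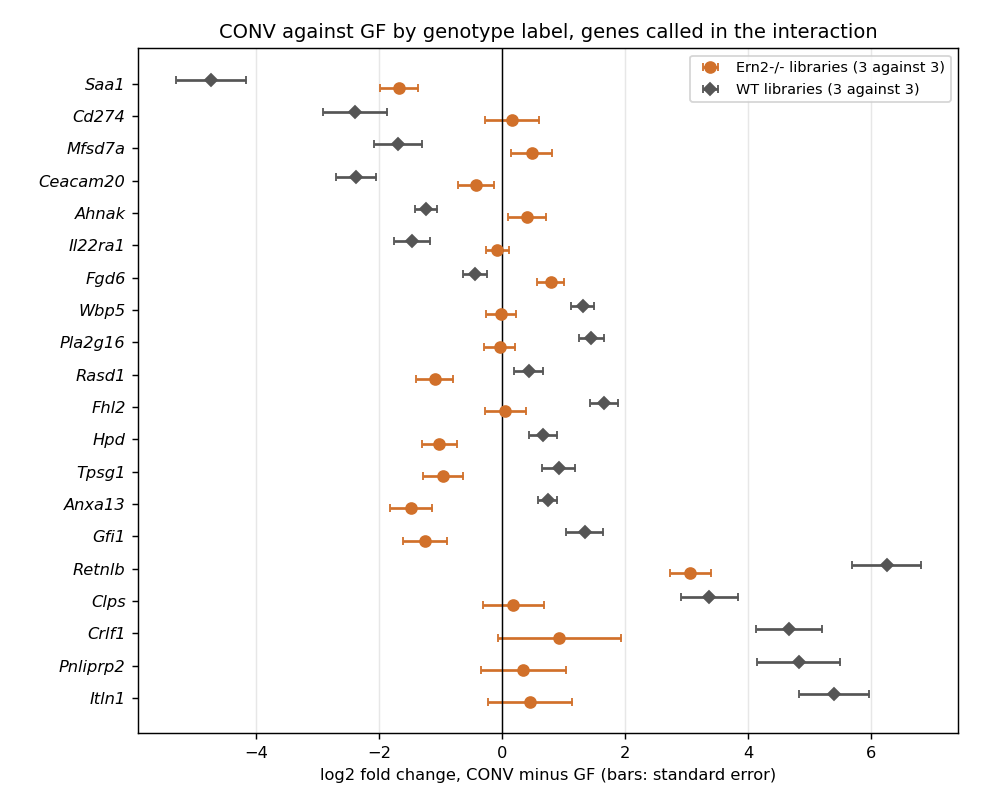
Log2 fold change of CONV against GF (bars show the standard error) in the Ern2-/- libraries (orange circles) and the WT libraries (grey diamonds) for the 20 genes called in the interaction that are not Y-linked. Gfi1, Anxa13, Hpd, Tpsg1 and Rasd1 are among those on opposite sides of 0, while Retnlb is above 0 and Saa1 below 0 under both labels.

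Crypts of mice with lifelong microbes were also compared with crypts of mice given microbes for 14 days. A direct test of CONV-Ern2-/- against COLONIZED-Ern2-/- called 1125 of 13098 genes (8.59%), 636 higher and 489 lower in CONV. Leaving out 1 library gave 414 to 2499 calls, the fit of all 18 libraries turned the balance to 170 higher and 262 lower, and edgeR called 35, all higher. COLONIZED crypts came from distal colon, which the labels of CONV crypts do not state, and their ribosomal RNA share was 0.360 to 0.580%, so the time with microbes cannot be told apart from these differences or from housing. Muc2 was lower in CONV than in COLONIZED libraries (log2 fold change -1.79, DESeq2 adjusted p = 4.7e-07), as were Agr2 (-1.48), Hspa5 (-1.03) and Chac1 (-2.14). Klk1 (-1.71) and Best2 (-3.65) were lower too, and the water channel Aqp8 was higher (4.75, DESeq2 adjusted p = 1.4e-40). Values against GF-Ern2-/- share the GF libraries between states and are given side by side only. Chac1 was at 2.47 in CONV and 4.61 in COLONIZED, Derl3 at 2.61 and 3.34, Saa1 at -1.68 and -4.44, Insl5 at -3.37 and 0.12, and Gfi1 at -1.26 and 0.03. For Derl3 each COLONIZED-Ern2-/- library was above each CONV-Ern2-/- library on the scale of all 18 libraries. The direct test of Derl3 did not pass the threshold (log2 fold change -0.72, DESeq2 adjusted p = 0.080).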

How the data were processed

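Colon crypt RNA of 18 samples was sequenced, and 6 of them form the comparison. The authors prepared stranded mRNA libraries and deposited the number of reads per gene symbol as raw counts, neither normalized nor pooled. The submitters' processing notes name STAR, DESeq2 and mm10; versions, the annotation and whether counting used strand are not given in the sources used here, so reads of overlapping, antisense or near-identical genes may be shared. The deposited count table has 24047 rows, of which 27 have names that read as dates, and 2 symbols occur more than once.

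Genes were tested on these 6 libraries with DESeq2 1.42.0 (Wald test, R 4.3.3; defaults for size factors, Cook's distances and independent filtering, no shrinkage), with calls at a Benjamini-Hochberg adjusted p under 0.01, as in the study's methods. Alternatives were the quasi-likelihood test of edgeR 4.0.16, other scaling, filters, covariates, thinning, a replicate block, all 18 libraries in 1 fit and leaving out each library. The interaction used the 12 GF and CONV libraries. The fitting steps were tested on simulated data. Fold changes of genes at 0 in a group were set against a floor of 3 counts, and counting intervals (95%) cover counting error only. Ratios by level divide a group's summed reads by its summed size factors, so they differ from ratios of mean normalized counts.

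Members and lists were chosen with earlier results of these data known. Named genes are Ern2, Ern1 and Xbp1, the 12 largest rises and falls (mean of at least 50 normalized counts, groups apart, called in all 6 fits without 1 library), up to 6 called members per direction of each list, and a fixed set of crypt genes; any other gene was chosen after its values were seen. Some genes that the rule names are not reported here. Coordinates and promoter sequences come from RefSeq (GRCm38.p6), matched by symbol.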

Additional observations from a re-analysis of the deposited data

Results flagged for a closer look

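For 4 genes that the naming rule picked, the difference between CONV and GF libraries differed between the genotype labels. The test was the interaction term of DESeq2 over 12 libraries. Anxa13, Itln1, Clps and Pnliprp2, described above and chosen after their values were seen, were called in it too. Given as the Ern2-/- difference minus the WT difference on the log2 scale, the interaction was -2.61 for Gfi1 (SE 0.41), -3.20 for Retnlb (SE 0.69), -1.53 for Rasd1 (SE 0.35) and 3.05 for Saa1 (SE 0.70). The call of Gfi1 held in 12 of the 12 fits that left out 1 library, and those of Retnlb, Rasd1 and Saa1 each held in 3. In edgeR the interaction called none of them. No test of single outlying samples was run on groups of 3 libraries.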

How the results depend on the processing

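The count of called genes depended on the tool, on whether library totals were included in the fit and on single libraries. Against 581 calls between CONV-Ern2-/- and GF-Ern2-/-, edgeR made 4, DESeq2 with the library total as a covariate 108, and all 18 libraries in 1 fit 937. Leaving out 1 library gave 251 to 948 calls, the lowest without GF-Ern2-/- replicate 1 and the highest when replicate 2 of that group was left out. Without CONV-Ern2-/- replicate 3 there were 271. Thinned counts (453), a sex covariate (526), TMM scaling (581) and both filters on low counts stayed within 1.5 times. The interaction called 23 genes, and 0 in edgeR, 15 with thinned counts, 57 with all 18 libraries and 3 to 289 without 1 library, the extremes coming from the omission of CONV-WT replicate 1 and CONV-WT replicate 3. CONV-Ern2-/- against COLONIZED-Ern2-/- called 1125, 35 in edgeR (each higher in CONV), 432 with all 18 libraries, and 414 to 2499 without 1 library, the extremes coming from replicate 1 of COLONIZED-Ern2-/- and replicate 1 of CONV-Ern2-/-. The causes were not tested.

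Replicate numbers were shared between groups. Deviations of same-numbered libraries correlated at -0.07, -0.29 and 0.12, and GF-Ern2-/- replicate 1 correlated best with CONV-Ern2-/- replicate 2 (0.30). The labels state no pairing, and these few values cannot tell whether libraries of the same number were prepared together. With a replicate block 537 genes were called, 437 of them among the 581, against 41 in the interaction and 939 against COLONIZED-Ern2-/-.

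Of 128 called genes that the naming rule picked, none changed direction in any setting. The call held for 111 with the replicate block, 111 with thinned counts, 127 with TMM, 98 with the sex covariate, 45 with the library total, 4 in edgeR and 79 to 111 without 1 library. CONV-Ern2-/- replicates 2 and 3 had the smallest totals of the study, which limits what can be said of genes with few counts there.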
